A study of Mus musculus and Homo sapiens with 14 samples.

Results

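A set of 32 mouse genes that build ribosomes, make polyamines and pyrimidines or fold mitochondrial proteins was followed across 5 culture conditions of the mouse lines MB1 and Oli-neu. The set is a fixed list of symbols, many of them textbook targets of the transcription factor MYC, and all 32 were found among the 35288 gene identifiers of each mouse table. By role it holds 2 genes of pre-rRNA transcription, 5 of the small nucleolar ribonucleoproteins (snoRNPs) and their assembly, 7 of small subunit and 8 of large subunit maturation, 4 nucleolar scaffold, chaperone and helicase genes, 2 of polyamine synthesis, 2 of pyrimidine synthesis and nucleoside uptake and 2 of the mitochondrial chaperonin.

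The 10 mouse libraries form 5 groups of 2, described by the submitters as biological replicates. These are MB1 with Oli-neu, MB1 alone, Oli-neu with MB1, Oli-neu with D341 and Oli-neu alone. MB1 came from medulloblastomas of Atoh1-cre:SmoM2 mice at postnatal day 12, in which Cre expressed from the Atoh1 promoter turns on an active Smoothened, the signal transducer of the hedgehog pathway. Oli-neu is a line labelled as oligodendrocyte precursor cells, while D341 cells derive from a human medulloblastoma of Group 3. Whether MB1 is a single clone is not given in the sources used here. Partners shared medium across a 30 mm insert with pores of 0.4 µm, and every group grew with 20 ng/mL of EGF and bFGF. Poly(A) RNA was sequenced with a directional kit, and the values are TPM, transcripts scaled by length so that all genes of a library add up to 1000000. The depth behind the TPM is unknown, and 11596 to 12338 genes reached 1 TPM in a library. Pearson correlations of replicate libraries, taken across genes that are not independent of each other, lay at 0.953 to 0.977.

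Markers were set against the labels. Oli-neu alone had Sox10 at 171 and 197 TPM and Olig2 at 64.7 and 76.0 TPM, with Nkx2-2 at 0 in all 6 Oli-neu libraries. Olig2 does not set the lines apart, since it was at 246 and 228 TPM in MB1 alone, where Olig1 was at 655 and 833 TPM and Sox10 at 0.882 and 0.466 TPM. The astrocyte gene Slc1a3 was at 363 and 324 TPM in MB1 alone. It was the highest of the 6 astrocyte markers there, and the others ranged from 0.412 TPM (Aqp4) to 21.7 TPM (Slc1a2). In MB1 alone the granule precursor gene Zic1 was at 84.3 and 63.7 TPM, but Barhl1 was at 0 in all 4 MB1 libraries. Atoh1, whose promoter drives the Cre, was at 0 and 0.0143 TPM in MB1 alone, and the hedgehog target Gli1 at 0.178 and 0.129 TPM. Of the same marker list, Ptch1 was at 18.4 and 14.2 TPM there, Zic2 at 22.6 and 28.2 TPM and Pax6 at 22.7 and 25.4 TPM. In MB1 alone 6 of the 10 granule precursor and hedgehog markers were under 1 TPM in both libraries. Microglia and macrophage markers summed to at most 0.437 TPM in any mouse library.

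MYC is a transcription factor that pairs with MAX and binds the E-box CACGTG, and it is known for driving cell growth through the genes of ribosome production. RNA polymerase I transcribes a long precursor rRNA in the nucleolus, where snoRNPs guide its chemical modification and large assemblies cut and fold it into both subunits. Rapidly growing cells, medulloblastoma cells among them, also need polyamines and nucleotides for this work.

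Promoter sequences are printed here to show where an E-box stands, or does not, in genes whose levels are compared. Windows of 300 bases, 250 before to 50 after the start site, were taken from RefSeq (GRCm38.p6), where 25 of the 32 genes matched. Fbl, Bop1, Rrs1, Npm1, Rrp12, Tcof1 and Srm are the others. The capitals mark CACGTG, which reads the same on both strands, and each sequence runs 5′ to 3′ on the strand of its gene. Hspd1 and Hspe1, the mitochondrial chaperonin and its co-chaperonin, are transcribed in opposite directions from start sites at 55088243 and 55088148, so their 5′ ends overlap. They are shown because they form a head-to-head pair among the listed genes. Hspd1 but not Hspe1 was lower without overlap in Oli-neu with D341, while both were lower without overlap with MB1. A link between motif and level was not tested. Hspd1 (chr1:55088194-55088493, minus strand) holds a motif 80 bases before its start, and the window of Hspe1 (chr1:55087898-55088197, plus strand) holds none. The Hspd1 motif lies past the end of the Hspe1 window, on the side into which Hspe1 is transcribed.
Hspd1: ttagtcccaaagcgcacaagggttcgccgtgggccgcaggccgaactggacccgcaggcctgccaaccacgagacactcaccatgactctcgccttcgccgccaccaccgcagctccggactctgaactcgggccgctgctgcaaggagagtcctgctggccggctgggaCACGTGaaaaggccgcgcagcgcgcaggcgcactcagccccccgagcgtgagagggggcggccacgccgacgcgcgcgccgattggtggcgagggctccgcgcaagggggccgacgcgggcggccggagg
Hspe1: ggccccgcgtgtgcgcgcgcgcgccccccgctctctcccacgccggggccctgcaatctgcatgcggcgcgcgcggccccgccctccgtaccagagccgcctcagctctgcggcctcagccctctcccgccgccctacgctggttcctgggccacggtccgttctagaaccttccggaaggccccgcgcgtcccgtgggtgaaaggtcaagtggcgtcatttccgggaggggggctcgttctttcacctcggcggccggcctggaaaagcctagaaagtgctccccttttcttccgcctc
Of the genes with a motif, Mybbp1a, Nop2 and Utp20 are shown as those with the smallest p in MB1, chosen after their values were seen. Mybbp1a (chr11:72441077-72441376, plus strand) has the motif 40 bases after its start. Nop2 (chr6:125131633-125131932, plus strand) has it 60 bases before, and Utp20 (chr10:88826765-88827064, minus strand) 37 bases after.
Mybbp1a: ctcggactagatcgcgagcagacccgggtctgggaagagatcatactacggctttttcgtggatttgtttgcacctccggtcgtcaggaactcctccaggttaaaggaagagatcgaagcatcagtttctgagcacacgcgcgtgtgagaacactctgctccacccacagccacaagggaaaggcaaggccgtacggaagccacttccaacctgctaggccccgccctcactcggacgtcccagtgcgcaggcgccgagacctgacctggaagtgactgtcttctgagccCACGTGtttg
Nop2: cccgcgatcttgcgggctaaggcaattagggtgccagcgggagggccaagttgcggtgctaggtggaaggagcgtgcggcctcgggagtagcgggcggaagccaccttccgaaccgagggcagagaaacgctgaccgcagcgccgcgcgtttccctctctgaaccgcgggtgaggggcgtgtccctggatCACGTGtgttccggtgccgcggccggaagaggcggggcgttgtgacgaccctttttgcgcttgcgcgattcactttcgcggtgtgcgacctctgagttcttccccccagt
Utp20: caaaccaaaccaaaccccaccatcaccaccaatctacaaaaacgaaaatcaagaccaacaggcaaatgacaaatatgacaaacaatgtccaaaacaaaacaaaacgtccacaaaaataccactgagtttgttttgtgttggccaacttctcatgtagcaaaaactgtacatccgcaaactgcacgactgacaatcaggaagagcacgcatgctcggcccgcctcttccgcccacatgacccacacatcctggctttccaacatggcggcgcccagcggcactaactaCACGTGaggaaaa
CACGTG was present in the windows of 6 of the 25 genes (24.0%), which are Hspd1, Mybbp1a, Nop2, Pes1, Utp20 and Wdr43, against 8.09% of 27025 genes in the RefSeq table. The RefSeq share covers genes whatever their level here. The share among the genes tested was not counted, so 24.0% has no background of expressed genes beside it. A match describes the letters and is not a binding site.

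MB1 cells with Oli-neu were compared with MB1 cells alone, to see how the tumour line differs when it shares medium with the precursor line. Most of the 32 genes had a lower level beside Oli-neu. The mean was lower for 30 of 32, against 70.9% of the 12407 genes tested, and in 27 both libraries with Oli-neu lay below both libraries alone, a pattern seen in 41.5% of all genes. Fold changes are differences of mean log2(TPM + 1), and their median over the set was -0.51 against -0.17 over all genes tested. Under median-ratio scaling, which sets the median of all genes near 0, the set's median was -0.33 and 27 of 32 had a lower mean. Between libraries of the same replicate number the set's median was -0.60 for number 1 and -0.40 for number 2. The median gene of the set stood at percentile 13.2 of all fold changes, where 0 is the lowest. limma called 0 of 12407 genes at an adjusted p of 0.05, none of the 32 among them (0%). At an unadjusted p under 0.05, 16 of the 32 were lower, against 12.6% of all genes tested (1569) lower and 3.02% (375) higher. The count of the 16 was 7 under median-ratio scaling, where 579 of 12394 genes were lower at that p, and 5 without MB1 with Oli-neu replicate 1, where 592 of 12211 were.

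Cell type markers also differed between these libraries. Oligodendrocyte lineage markers summed to 816 and 681 TPM with Oli-neu, against 1004 and 1175 TPM in MB1 alone, with none of 10 at 0 in both libraries of a group. Astrocyte markers summed to 479 and 476 TPM with Oli-neu, against 410 and 366 TPM alone, again with none of 6 at 0. Granule precursor and hedgehog markers summed to 169 and 195 TPM with Oli-neu, against 150 and 133 TPM alone, with Barhl1 at 0 in both groups and Atoh1 at 0 with Oli-neu. Neuron markers, 65.6 and 136 TPM with Oli-neu against 146 and 87.1 TPM alone, overlapped. Endothelial and fibroblast markers were at 3.17 and 4.46 TPM with Oli-neu, against 1.22 and 1.67 TPM alone, with Cdh5 at 0. The largest part of each sum was 1 gene. These were Olig1 (575 and 455 TPM with Oli-neu, 655 and 833 alone), Slc1a3 (419 and 404, 363 and 324) and Zic1 (101 and 125, 84.3 and 63.7). Map2 (60.3 and 131, 137 and 80.4) and Pecam1 (2.65 and 3.94, 0.946 and 1.47) were the others. The sums thus say little of the other markers. Pseudogenes took 26.8% and 26.7% of TPM with Oli-neu, against 25.3% and 25.2% alone. The part of these values in the result was not tested. In such bulk samples, fewer cells of a type and less RNA per cell cannot be told apart.

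Oli-neu cells with MB1 and Oli-neu cells with D341 were each compared with the same 2 libraries of Oli-neu alone, to see how the precursor line differs beside either tumour line. Most means were lower beside either partner. Rrp12, at 0.554 to 0.964 TPM in the 6 libraries, did not reach 1 TPM in any and was not tested, which leaves 31 genes of 12280 tested. With MB1, the mean was lower for 29 of 31, against 62.6% of all genes tested, and 15 were lower without overlap, against 24.0%. The median was -0.24, against -0.06 over all genes, and -0.24 and -0.18 within numbers 1 and 2. With D341, the mean was lower for 29 of 31, against 75.8% of all genes tested, and 20 were lower without overlap, against 44.0%. The median was -0.28, against -0.16 over all genes, and -0.29 within either number. Under median-ratio scaling these medians were -0.17 with MB1 and -0.10 with D341, with 28 and 21 genes lower, and 10 genes were lower without overlap with D341. The share of all genes lower without overlap was not counted under this scaling, and the 44.0% belongs to the unscaled values. limma called 0 of 12280 genes in either comparison (0%). At an unadjusted p under 0.05, 3 listed genes were lower with MB1, against 4.65% of all genes tested (571) lower and 1.43% (176) higher. With D341 11 were lower, against 12.1% (1486) lower and 1.61% (198) higher, or 5 under median-ratio scaling, where 445 of 12263 genes were lower. Oligodendrocyte markers summed to 625 and 727 TPM with MB1 and 559 and 586 TPM with D341, against 638 and 708 TPM in Oli-neu alone, so that both libraries with D341 lay below the others. Libraries with D341 also lay below those alone in the sums of neuron markers (27.3 and 24.4 against 33.9 and 35.9 TPM), granule precursor markers (12.5 and 12.9 against 14.1 and 18.4 TPM) and endothelial and fibroblast markers (4.39 and 4.79 against 5.67 and 7.71 TPM). With MB1 these sums were 37.0 and 28.6, 14.8 and 14.2, and 5.02 and 5.66 TPM, and those of the astrocyte markers overlapped in both comparisons. Map2 made up most of each neuron sum, and Slc1a3 most of each astrocyte sum. Pseudogenes took 37.0% and 38.2% of TPM with D341 and 36.3% and 37.8% with MB1, against 36.0% and 36.6% alone. The part of these values was not tested.

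**Figure D1:**
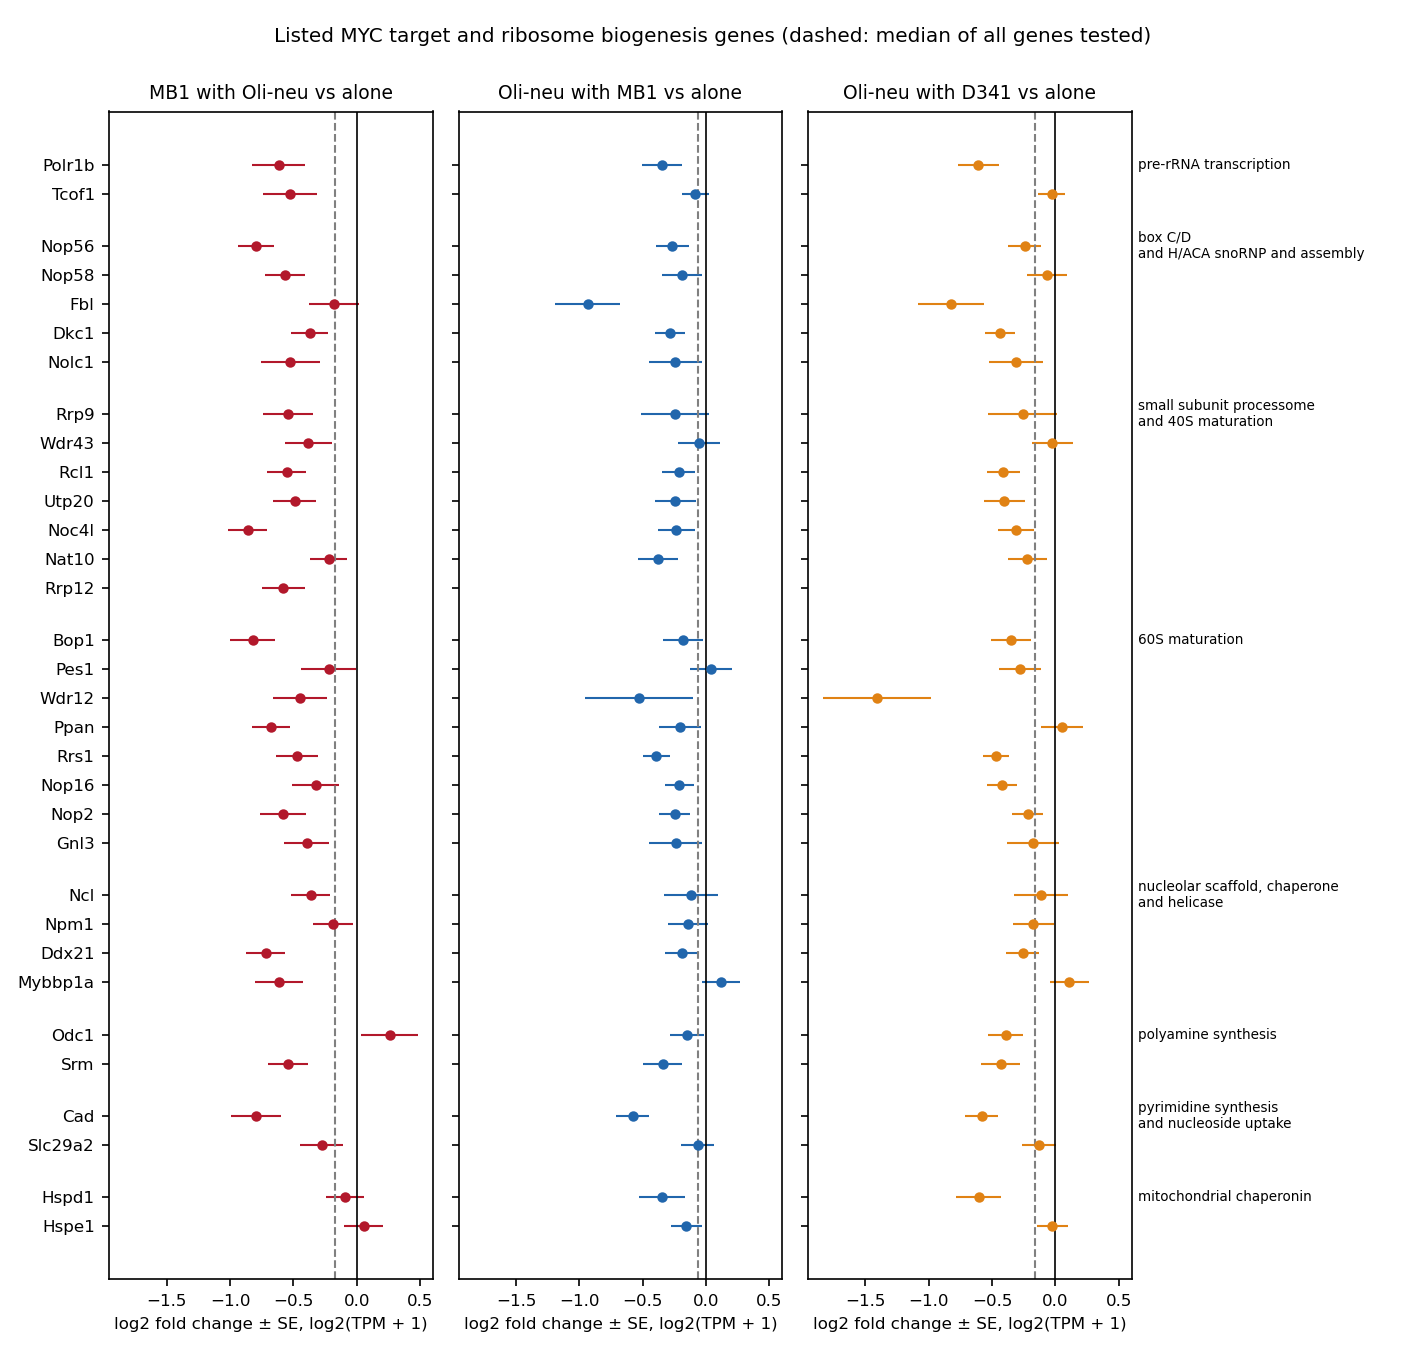
Log2 fold changes on the log2(TPM + 1) scale with their standard errors (bars) for the listed genes, grouped by role down the page, in MB1 with Oli-neu against alone, Oli-neu with MB1 against alone and Oli-neu with D341 against alone. The dashed line is the median of all genes tested (-0.17, -0.06 and -0.16 in these panels), and most points lie to its left in the MB1 panel, with Odc1 at 0.26 and Hspe1 at 0.05 on the right of 0.

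**Figure D2:**
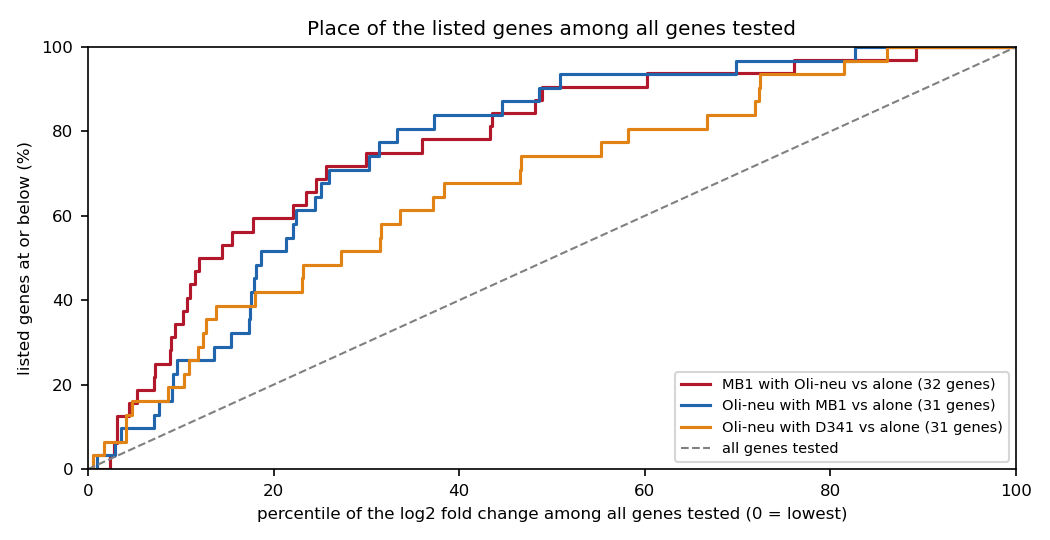
Cumulative share of the listed genes (vertical axis, percent) at or below each percentile of the fold changes of all genes tested (horizontal axis, 0 is the lowest) for the same 3 comparisons, with the dashed diagonal for all genes. The median listed gene stood at percentile 13.2 in MB1 with Oli-neu, 18.6 in Oli-neu with MB1 and 27.2 in Oli-neu with D341.

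The direct comparison of Oli-neu with D341 and Oli-neu with MB1 asked whether the partner mattered. Of 31 genes 20 had a lower mean with D341, against 68.5% of all genes tested, with a median of -0.06 against -0.09 over all genes, and 0.04 under median-ratio scaling, where 10 of 31 were lower. No overlap was seen for 6 lower genes, against 28.8% of all genes tested, and for 3 higher genes, against 6.60%. limma called 0 of 12280 genes (0%), with 4.34% (533) lower and 0.790% (97) higher at an unadjusted p under 0.05, none of the 31 among them. The smallest p values were those of Wdr12 (-0.88, SE 0.43), Pes1 (-0.32, SE 0.17), Nop16 (-0.21, SE 0.12), Odc1 (-0.24, SE 0.14) and Polr1b (-0.26, SE 0.16), each with a limma adjusted p of 0.839.

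MB1 and Oli-neu share no libraries in their comparisons. Of the 27 genes lower without overlap in MB1, 12 (44.4%) were also among the 15 of Oli-neu with MB1 (80.0% of those), and 16 (59.3%) among the 20 of Oli-neu with D341 (80.0%). Since 84.4% of the 32 were lower without overlap in MB1, these shares of 80.0% are no sign of agreement between the lines. Fbl, Hspd1 and Hspe1 were lower without overlap in Oli-neu with MB1 but not in MB1, and Fbl, Hspd1, Odc1 and Pes1 in Oli-neu with D341.

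Pre-rRNA transcription is represented by Polr1b, a catalytic subunit of RNA polymerase I, and Tcof1, treacle, which supports rDNA transcription. Polr1b was at 3.42 and 4.81 TPM in MB1 with Oli-neu, against 7.43 and 6.15 TPM in MB1 alone. It was at 2.23 and 2.91 TPM in Oli-neu with MB1 and 2.06 and 1.89 TPM with D341, against 3.16 and 3.93 TPM in Oli-neu alone. Every co-culture library was thus below those of its line alone. Its log2 fold change with D341 was -0.61 (SE 0.16), with an adjusted p of 0.320 in limma, and -0.26 (SE 0.16) for D341 against MB1 as the partner. Tcof1 was at 3.70 and 4.91 TPM in MB1 with Oli-neu, against 7.56 and 5.76 TPM alone, and ranged over 5.52 to 6.37 TPM in the 6 Oli-neu libraries.

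The snoRNP genes contain the core of the box C/D particles, which guide methylation of rRNA. Nop56, a scaffold of that core, was at 96.4 and 104 TPM in MB1 with Oli-neu, against 175 and 173 TPM in MB1 alone, a log2 fold change of -0.80 (SE 0.14, limma adjusted p 0.282). Its partner Nop58 was at 80.5 and 94.3 TPM with Oli-neu, against 131 and 128 TPM alone (-0.57, SE 0.16, adjusted p 0.284 in limma). For both genes the gap between the groups was wider than that between replicates. Fibrillarin, Fbl, the methyltransferase of the same particle, overlapped in MB1, with 147 and 190 TPM beside Oli-neu and 205 and 175 TPM alone. Its fold change there was -0.18 (SE 0.20), and 0.0096 under median-ratio scaling and 0.0042 without MB1 with Oli-neu replicate 1. The Fbl libraries were separated in Oli-neu. Fbl was at 78.1 and 120 TPM with MB1 and 101 and 108 TPM with D341, against 215 and 161 TPM alone. Fold changes were -0.94 (SE 0.26, limma adjusted p 0.715) with MB1 and -0.82 (SE 0.26, limma adjusted p 0.335) with D341. Nop58 was at 83.2 and 98.6 TPM with MB1 and 103 and 94.6 TPM with D341, against 94.1 and 114 TPM alone, and these overlapped. The ratio of Fbl to Nop56 in TPM was 1.52 and 1.83 in MB1 with Oli-neu, against 1.17 and 1.01 in MB1 alone. In Oli-neu the ratio was 0.695 and 1.03 with MB1 and 0.907 and 0.898 with D341, against 1.69 and 1.08 alone. It was thus higher beside the partner in MB1 and lower in Oli-neu, without overlap in either line, and the difference between lines was not tested.

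Dkc1, the pseudouridine synthase of box H/ACA particles, lay below the libraries alone in all 3 co-cultures. It was at 18.8 and 17.5 TPM in MB1 with Oli-neu, against 23.8 and 23.7 TPM in MB1 alone. In Oli-neu it was at 10.8 and 12.8 TPM with MB1 and 10.1 and 10.8 TPM with D341, against 14.5 and 14.6 TPM alone. The fold changes in Oli-neu were -0.29 with MB1 (SE 0.12, limma adjusted p 0.813) and -0.44 with D341 (SE 0.12, limma adjusted p 0.320). Nolc1, a chaperone of snoRNP assembly, was at 13.0 and 17.9 TPM in MB1 with Oli-neu, against 25.6 and 19.5 TPM alone, and ranged over 11.1 to 18.02 TPM in Oli-neu with overlap.

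**Figure D3:**
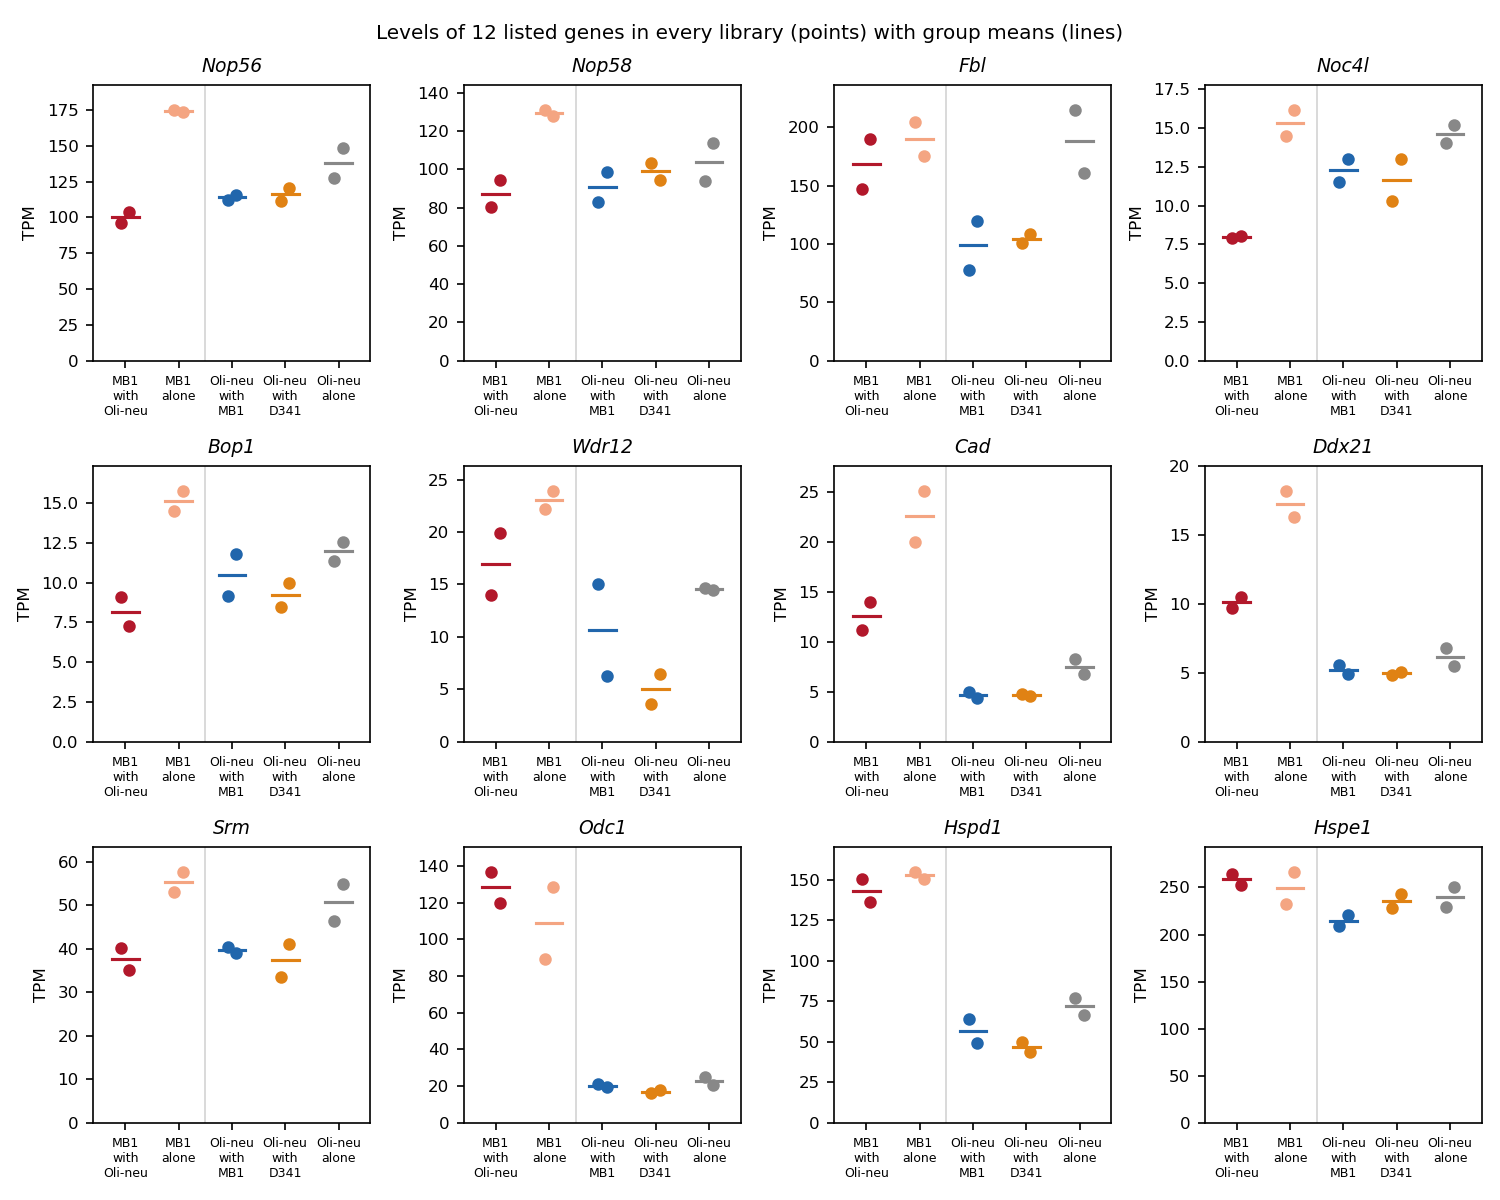
TPM of 12 listed genes in every library (points) with the mean of each group (lines), each panel on its own axis from 0, MB1 groups left of the grey line and Oli-neu groups right of it. The 2 libraries of MB1 with Oli-neu lie below both of MB1 alone for Nop56 (96.4 and 104 against 175 and 173 TPM), whereas those of Odc1 (137 and 120 against 89.0 and 128 TPM) overlap.

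In small subunit maturation all 7 genes were lower without overlap in MB1 with Oli-neu, against 41.5% of all genes tested. Noc4l, a factor of the small subunit processome, was at 7.90 and 8.06 TPM with Oli-neu, against 14.5 and 16.2 TPM in MB1 alone, a log2 fold change of -0.86 (SE 0.15, limma adjusted p 0.282). Rrp12, a factor of subunit maturation and export, was the least abundant gene of the set, with 1.15 and 1.45 TPM with Oli-neu, against 2.36 and 2.50 TPM alone. Utp20 was at 4.67 and 5.63 TPM with Oli-neu, against 7.24 and 7.99 TPM alone, and Rcl1 at 5.02 and 4.49 TPM, against 7.48 and 7.38 TPM alone. Both belong to the same processome, and neither group overlapped the other. Rrp9, a protein of the U3 snoRNP, was at 17.98 and 24.5 TPM with Oli-neu, against 30.4 and 31.6 TPM alone. Wdr43 was at 8.76 and 8.79 TPM, against 13.5 and 10.2 TPM alone. Nat10, which acetylates small subunit rRNA, had the smallest fold change of the 7, with 15.9 ± 0.441 TPM with Oli-neu and 18.8 ± 1.09 TPM alone (SD, n = 2 each). In Oli-neu Nat10 was at 9.00 and 10.3 TPM with MB1 and 10.8 and 10.9 TPM with D341, against 11.2 and 14.7 TPM alone. Its fold change with MB1 was -0.38 (SE 0.15, limma adjusted p 0.813). Noc4l was at 11.5 and 13.0 TPM with MB1 and 10.3 and 13.0 TPM with D341, against 14.0 and 15.2 TPM in Oli-neu alone. Rcl1 was at 6.84 and 7.16 TPM with MB1 and 6.75 and 5.29 TPM with D341, against 8.29 and 8.27 TPM alone. Both were lower without overlap beside either partner. Utp20 was at 2.29 and 3.21 TPM with MB1 and 2.44 and 2.21 TPM with D341, against 3.19 and 3.62 TPM alone, and only the libraries with D341 were separated from those alone. Rrp9 ranged over 11.8 to 21.0 TPM and Wdr43 over 5.95 to 7.60 TPM in the 6 Oli-neu libraries, with overlap in both comparisons.

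The large subunit genes include Bop1, Pes1 and Wdr12, which form the PeBoW complex that processes the precursor of the large subunit rRNA. Bop1 was at 9.09 and 7.24 TPM in MB1 with Oli-neu, against 14.5 and 15.8 TPM in MB1 alone (-0.82, SE 0.18, limma adjusted p 0.282). Pes1, at 23.3 and 28.5 TPM with Oli-neu, against 35.3 and 25.8 TPM alone, overlapped. Wdr12 was at 14.0 and 19.9 TPM with Oli-neu, against 22.2 and 23.9 TPM alone. In Oli-neu Wdr12 had the lowest fold changes of the complex. It was at 15.0 and 6.29 TPM with MB1 and 3.61 and 6.45 TPM with D341, against 14.7 and 14.5 TPM alone. With MB1, replicate 1 lay above both libraries alone and replicate 2 below the higher library with D341, while both libraries with D341 lay below those alone. The fold change was -1.41 with D341 (SE 0.43, limma adjusted p 0.328) and -0.88 for D341 against MB1 as the partner (SE 0.43, limma adjusted p 0.839). Bop1 in Oli-neu was at 9.15 and 11.8 TPM with MB1 and 8.45 and 9.94 TPM with D341, against 11.4 and 12.6 TPM alone. Pes1 was at 33.8 and 25.9 TPM with MB1 and 24.1 and 23.0 TPM with D341, against 31.1 and 26.7 TPM alone. The ratio of Wdr12 to Bop1 was 1.64 and 0.534 with MB1 and 0.427 and 0.649 with D341, against 1.29 and 1.15 in Oli-neu alone.

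Among the remaining large subunit genes, Rrs1, an assembly factor, was lower without overlap in all 3 co-cultures. It was at 12.9 and 11.2 TPM in MB1 with Oli-neu, against 15.9 and 18.4 TPM in MB1 alone. In Oli-neu it was at 5.89 and 5.80 TPM with MB1 and 5.43 and 5.54 TPM with D341, against 8.54 and 7.45 TPM alone. Fold changes in Oli-neu were -0.39 with MB1 (SE 0.11, limma adjusted p 0.715) and -0.47 with D341 (SE 0.11, limma adjusted p 0.320). Nop16 was at 17.2 and 17.6 TPM with MB1 and 13.7 and 16.1 TPM with D341, against 20.8 and 19.7 TPM in Oli-neu alone, and the libraries with D341 lay below those with MB1. The fold change of Nop16 with D341 was -0.42 (SE 0.12, limma adjusted p 0.320). Ppan, another assembly factor, was at 10.8 and 12.2 TPM in MB1 with Oli-neu, against 18.7 and 19.1 TPM alone (-0.68, SE 0.15, limma adjusted p 0.282). Ppan in Oli-neu was at 16.0 and 21.7 TPM with MB1 and 23.2 and 22.0 TPM with D341, against 22.5 and 20.9 TPM alone, so that the 2 partners differed in sign for this gene (0.26 for D341 against MB1, SE 0.16). The rRNA methyltransferase Nop2, whose promoter is printed above, was at 7.21 and 9.48 TPM in MB1 with Oli-neu, against 12.6 and 13.2 TPM alone. Nop2 in Oli-neu was at 8.35 and 8.92 TPM with MB1 and 9.55 and 8.14 TPM with D341, against 11.0 and 9.86 TPM alone. Gnl3, nucleostemin, was at 64.5 and 80.1 TPM with Oli-neu, against 99.6 and 90.6 TPM in MB1 alone, and overlapped in Oli-neu, where it ranged over 57.6 to 89.0 TPM.

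The nucleolar scaffold genes include the most abundant member. Npm1, nucleophosmin, averaged 615 TPM in MB1 with Oli-neu and 701 TPM in MB1 alone, and made up 29.4% and 27.8% of the set's summed TPM. In Oli-neu its mean was 1248 TPM with MB1, 1219 TPM with D341 and 1371 TPM alone. Reads of genes with processed pseudogenes, such as Npm1 and Hspe1, may be split between copies, and pseudogenes held 25.2% to 26.8% of the total in MB1 libraries and 36.0% to 38.2% in those of Oli-neu, so these levels are uncertain. Nucleolin, Ncl, was at 211 and 187 TPM in MB1 with Oli-neu, against 247 and 264 TPM alone, and ranged over 258 to 371 TPM in Oli-neu with overlap. Ddx21, an RNA helicase that couples transcription and rRNA processing, was at 9.70 and 10.5 TPM with Oli-neu, against 18.2 and 16.3 TPM alone (-0.72, SE 0.15, limma adjusted p 0.282). Ddx21 in Oli-neu was at 5.53 and 4.93 TPM with MB1 and 4.85 and 5.07 TPM with D341, against 6.79 and 5.50 TPM alone. Mybbp1a, a Myb-binding protein of the nucleolus, was at 42.6 and 55.6 TPM with Oli-neu, against 78.3 and 71.9 TPM in MB1 alone. In Oli-neu the same gene was at 111 and 137 TPM with MB1 and 122 and 124 TPM with D341, against 106 and 122 TPM alone. It is the 1 member of 31 whose libraries with D341 were both above both libraries alone, against 7.12% of all genes tested. The gap was narrow, with the lower library with D341 at 122.2 TPM and the higher one alone at 121.9 TPM.

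In polyamine synthesis the enzymes were not alike in MB1. Odc1, ornithine decarboxylase, the rate-limiting enzyme of the pathway, was at 137 and 120 TPM in MB1 with Oli-neu, against 89.0 and 128 TPM in MB1 alone. Its fold change was 0.26 (SE 0.23, limma adjusted p 0.569), and -0.0020 without MB1 alone replicate 1. Srm, spermidine synthase, was at 40.3 and 35.2 TPM with Oli-neu, against 53.1 and 57.8 TPM alone. Odc1 therefore overlapped and Srm did not. The ratio of Odc1 to Srm in TPM was 3.40 and 3.41 with Oli-neu, against 1.68 and 2.22 in MB1 alone. In Oli-neu Odc1 was at 21.1 and 19.3 TPM with MB1 and 16.0 and 17.9 TPM with D341, against 24.7 and 20.5 TPM alone. Srm was at 40.3 and 39.0 TPM with MB1 and 33.5 and 41.1 TPM with D341, against 46.4 and 55.0 TPM alone.

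Cad, the enzyme that begins pyrimidine synthesis, was lower without overlap in all 3 co-cultures. It was at 11.2 and 14.0 TPM in MB1 with Oli-neu, against 20.0 and 25.1 TPM in MB1 alone (-0.79, SE 0.20, limma adjusted p 0.282). In Oli-neu it was at 5.00 and 4.39 TPM with MB1 and 4.80 and 4.55 TPM with D341, against 8.25 and 6.79 TPM alone. The fold change was -0.58 with either partner (SE 0.13), with a limma adjusted p of 0.715 with MB1 and 0.320 with D341. Slc29a2, a nucleoside transporter, was at 3.28 and 2.63 TPM in MB1 with Oli-neu, against 3.81 and 3.74 TPM alone, and ranged over 2.27 to 2.93 TPM in Oli-neu with overlap.

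The mitochondrial chaperonin genes, which lie head to head as printed above, were measured at high levels in both lines. Hspd1 was at 150 and 136 TPM in MB1 with Oli-neu, against 155 and 150 TPM alone, and Hspe1 at 265 and 253 TPM, against 233 and 267 TPM alone. Both overlapped. In Oli-neu Hspd1 was at 64.2 and 48.9 TPM with MB1 and 49.7 and 43.9 TPM with D341, against 76.9 and 66.6 TPM alone, with a fold change of -0.60 with D341 (SE 0.18, limma adjusted p 0.326). Hspe1 was at 209 and 220 TPM with MB1 and 228 and 243 TPM with D341, against 229 and 250 TPM alone. The ratio of Hspe1 to Hspd1 was 4.58 and 5.54 in Oli-neu with D341 and 3.26 and 4.51 with MB1, against 2.98 and 3.76 alone.

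The sum of the 32 TPM values was 2041 and 2142 in MB1 with Oli-neu, against 2541 and 2504 in MB1 alone. The sum in Oli-neu was 2617 and 2546 with MB1 and 2651 and 2463 with D341, against 2939 and 2956 alone. Each co-culture library summed below the libraries alone of its line, but Npm1 made up 46.5% to 48.3% of the sum in Oli-neu, and Npm1, Ncl, Nop56, Hspe1 and Fbl together 76.7% to 77.3% there and 62.3% to 64.2% in MB1 (group means), so the sum says little of the other members.

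The MYC network was examined next. Myc itself was at 23.9 and 24.7 TPM in MB1 with Oli-neu, against 37.5 and 30.6 TPM in MB1 alone (-0.47, SE 0.17, limma adjusted p 0.309). Myc in Oli-neu was at 54.8 and 57.4 TPM with MB1 and 50.0 and 39.9 TPM with D341, against 68.0 and 56.1 TPM alone. Mycn stayed under 1 TPM in all MB1 libraries and was not tested there. Of the 11 network genes tested in MB1, 9 had a lower mean, against 70.9% of all genes tested, and 6 were lower without overlap, against 41.5%. Their median was -0.18, against -0.17 over all genes, so these counts were near the background. In Oli-neu with MB1, 5 of 12 had a lower mean and 7 a higher one, against 62.6% of all genes tested lower. Their median was 0.06 against -0.06 over all genes. Without overlap 2 were lower, against 24.0% of all genes, and 4 higher, against 10.1%. With D341 8 of 12 had a lower mean, against 75.8%, with a median of -0.10 against -0.16. Without overlap 7 were lower, against 44.0%, and 1 higher, against 7.12%. Mxd4, an antagonist of MYC, was at 58.3 and 53.5 TPM with Oli-neu, against 41.4 and 45.2 TPM alone, and Mxd3, another, at 10.6 and 10.4 TPM, against 14.2 and 17.4 TPM alone. Max was at 151 and 124 TPM in Oli-neu with MB1 and 106 and 78.4 TPM with D341, against 103 and 77.5 TPM alone (a fold change of 0.60 with MB1, SE 0.23, limma adjusted p 0.809). Mycl was at 1.73 and 2.05 TPM with D341, against 3.46 and 3.11 TPM alone. None passed the threshold.

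**Figure D4:**
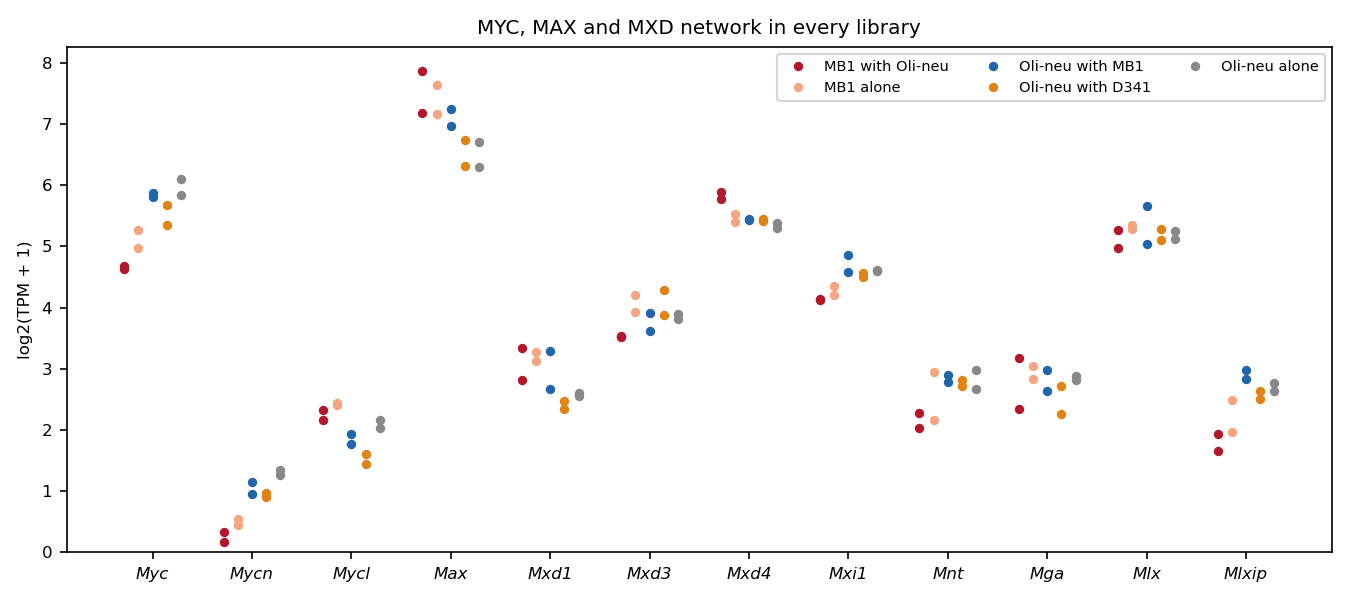
Levels of 12 genes of the MYC, MAX and MXD network as log2(TPM + 1) in every library, with a colour for each group and both libraries of a group in 1 column. Myc in MB1 lay at 23.9 and 24.7 TPM with Oli-neu, against 37.5 and 30.6 TPM alone, and Mxd4 is the gene whose MB1 libraries with Oli-neu were above those alone.

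Other genes of the same pathways, from lists of other members, were counted in MB1, where 70.9% of all genes tested had a lower mean, 41.5% were lower without overlap and the median was -0.17. Of 38 other small subunit genes, 36 had a lower mean with Oli-neu and 28 were lower without overlap, with a median of -0.43. Tsr1 averaged 5.81 TPM with Oli-neu and 11.5 TPM alone, and Wdr46 averaged 4.95 TPM with Oli-neu and 9.79 TPM alone. Of 38 other large subunit genes, 35 had a lower mean and 28 were lower without overlap, with a median of -0.42. Ddx27, an RNA helicase, averaged 20.5 TPM with Oli-neu and 38.9 TPM alone. Medians were -0.41 for 14 other genes of RNA polymerase I, -0.31 for 12 other snoRNP genes, -0.31 for 20 genes of RNA polymerase III and -0.38 for 16 genes of pyrimidine and purine synthesis. The median of 8 other polyamine genes was -0.14, with 2 lower and 2 higher without overlap, and that of the cytosolic chaperonin CCT was -0.21. DNA replication genes, a comparison list, had a median of -0.54, with 25 of 30 lower without overlap. Ribosomal protein genes had a higher mean in 63 of 80, with a median of 0.17, and 36 higher without overlap, against 10.9% of all genes tested. None of the genes in these lists passed the threshold.

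In Oli-neu with MB1 the same lists had medians of -0.17 for other small subunit genes, -0.18 for other large subunit genes and -0.47 for DNA replication. With D341 they were -0.28, -0.25 and -0.31. Ribosomal protein genes had medians of 0.00 with MB1 and 0.04 with D341. Other RNA polymerase I genes had medians of -0.06 with MB1 and -0.17 with D341, against -0.06 and -0.16 over all genes tested. The cytosolic chaperonin CCT, of which 7 of 8 subunits are in the tables, had a lower mean in 7 of 7 with either partner, against 62.6% of all genes tested with MB1 and 75.8% with D341. Its medians were -0.26 with MB1 and -0.34 with D341, against -0.06 and -0.16 over all genes.

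**Figure D5:**
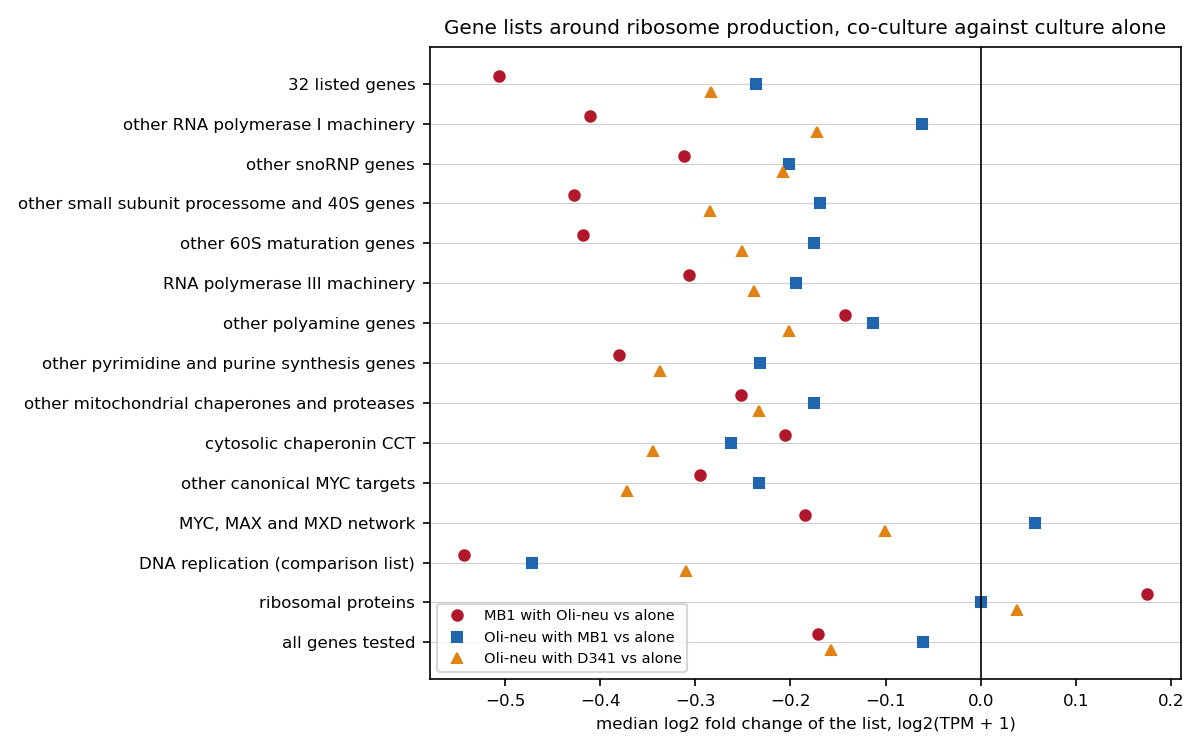
Median log2 fold change of each gene list on the log2(TPM + 1) scale, for MB1 with Oli-neu against alone (circles), Oli-neu with MB1 against alone (squares) and Oli-neu with D341 against alone (triangles). The listed genes lie at -0.51, -0.24 and -0.28 in that order, and the ribosomal proteins at 0.17, 0.00 and 0.04.

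Levels in the lines grown alone were set side by side, without a test, since the tables were normalized separately. MB1 alone was above Oli-neu alone in both libraries for 20 genes and below for 5 (Npm1, Mybbp1a, Ncl, Ppan and Rcl1), with overlap in 7 and a median ratio of 1.26. The same shares and ratio over all genes were not counted, so these values have no background beside them. Pseudogenes took 25.3% and 25.2% of TPM in MB1 alone, against 36.0% and 36.6% in Oli-neu alone. The part of this difference in the counts was not tested. The ratio was 4.80 for Odc1, 3.00 for Cad and 2.81 for Ddx21.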

How the data were processed

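Poly(A) RNA of MB1 and Oli-neu cells was sequenced over 75 cycles. The authors deposited TPM, with 1 column for each library. The submitters' processing notes name Salmon 0.14.1, DESeq2 1.22.2, FastQC 0.11.8 and MultiQC 1.7, with the build GRCm38, and the values add up to 1000000 in each library. No counts are given, so depth and counting intervals are unknown. The libraries of the human D341 cells themselves were not used here.

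Symbols came from GENCODE M21, which matched 35099 of 35288 identifiers. A gene entered the tests if 2 or more libraries of its table reached 1 TPM (12407 genes in MB1, 12280 in Oli-neu). The fit was made on log2(TPM + 1), a pseudocount of 1 TPM, by limma (version 3.58.1, R version 4.3.3) with trended variances, and the procedure was tested on simulated data. The 6 Oli-neu libraries shared a fit. Tests were two-sided, with Benjamini-Hochberg adjustment over all genes tested and a threshold of 0.05. Fold changes at low TPM are understated by the pseudocount. Separation without overlap means that both libraries of 1 group lie beyond both of the other. P-values rest on the spread between the 2 libraries of a group, pooled over all groups of the fit and moderated across genes. In Oli-neu they thus also draw on the group that is not compared.

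The members and lists were chosen with earlier results of these data known. In each comparison the 5 members with the smallest unadjusted p were given with their tests, and in each pathway list at most 2. Others given with a test, and the ribosomal protein list, were added with their values known. The alternatives tried were other pseudocounts and filters, median-ratio scaling, TPM rescaled without mitochondrially encoded genes or over protein-coding genes only, pseudogenes added to the gene they are named after, limma without trend or robust, a replicate block and each library left out. Adding pseudogenes left the medians of the set as they were. Pseudogenes under other names were not added, so the levels of Npm1 and Hspe1 remain uncertain.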

Additional observations from a re-analysis of the deposited data

Results flagged for a closer look

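Mybbp1a was singled out because its libraries were separated in opposite directions in MB1 and in Oli-neu with D341, though narrowly in the latter. Both libraries of Oli-neu with D341 (122.2 and 123.7 TPM) lay above both of Oli-neu alone (106.3 and 121.9 TPM), with a log2 fold change of 0.11. Those of Oli-neu with MB1 (111 and 137 TPM) overlapped Oli-neu alone. Both libraries of MB1 with Oli-neu (42.6 and 55.6 TPM) lay below both of MB1 alone (78.3 and 71.9 TPM), with -0.62. The difference between the lines was not tested, since the tables were normalized separately. The ratio of Fbl to Nop56 was separated the other way round. Its mean in MB1 was higher by 0.589 with Oli-neu than alone, and in Oli-neu both co-cultures lay below the libraries alone. The ratio of Wdr12 to Bop1 had a mean higher by 0.616 in MB1 with Oli-neu (1.536 and 2.746) than alone (1.533 and 1.518). This separation was narrow, at 1.536 against 1.533, and the higher mean rests on replicate 2 of MB1 with Oli-neu. The same ratio was lower in Oli-neu with D341 (0.427 and 0.649) than in Oli-neu alone (1.29 and 1.15). Neither difference between lines was tested.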

How the results depend on the processing

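The depth of the libraries is unknown and each group has 2 of them. No listed gene passed the threshold in any setting run. Only 28 fold changes were followed singly, those of the 5 members with the smallest p in each comparison and of some added genes. Of their values under the alternatives, 433 kept their direction and 3 did not. Other members were less stable. Under median-ratio scaling, members with a lower mean went from 29 to 28 with MB1 and from 29 to 21 with D341. They went from 20 to 10 for D341 against MB1 as the partner and from 30 to 27 in MB1. The labels do not say what a replicate number marks, so the numbers were not taken as pairs. Deviations of same-numbered libraries correlated at 0.593 to 0.618 among the Oli-neu groups and -0.115 in MB1. Under a replicate block 0 genes were called in each comparison, and the listed genes lower at an unadjusted p under 0.05 were 8 with MB1, 15 with D341, 1 for D341 against MB1 as the partner and 12 in MB1. Over all genes tested the same block gave 969, 2215 and 918 of 12280 and 1029 of 12407 lower. With the numbers of MB1 crossed, added after seeing the data, 0 genes were called.

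For Oli-neu with MB1, the number of genes called was 3 at a lower pseudocount (0.1 TPM), 1 with no filter, 2 under median-ratio scaling, 2 for protein-coding genes only and 1 without a trend. For Oli-neu with D341 they were 3 without a filter and 1 for protein-coding genes. For D341 against MB1 as the partner they were 6 without a filter, 1 for protein-coding genes and 1 without a trend. For MB1 they were 5 for protein-coding genes and 9 with robust limma. Leaving out each library gave 0 to 0, 0 to 2, 0 to 3 and 1 to 112 calls in the same order, with 112 without MB1 alone replicate 1, against 0 with every library kept.

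The median of the listed genes with a pseudocount of 5 TPM was -0.17 with MB1, -0.24 with D341, -0.033 for D341 against MB1 and -0.36 in MB1. Under median-ratio scaling it was -0.17, -0.10, 0.039 and -0.33 in that order. It was -0.25 with D341 for protein-coding genes, and -0.022 for D341 against MB1 with a filter of 5 TPM. Leaving out each library gave -0.24 to -0.20, -0.33 to -0.26, -0.087 to -0.036 and -0.58 to -0.40.

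Under median-ratio scaling, listed genes lower without overlap were 10 with D341 and 2 for D341 against MB1, and those at an unadjusted p under 0.05 were 5 with D341 and 7 in MB1. Shares of all genes without overlap were not counted under this scaling or with a library left out. With 1 library left in a group, separation is reached more easily, so counts without overlap there do not compare with the main ones. Leaving out each library gave 20 to 25, 22 to 25, 12 to 14 and 28 to 30 genes without overlap (for Oli-neu with MB1, 25 without replicate 1 of that group and 23 without Oli-neu alone replicate 2). It gave 2 to 7, 4 to 7, 0 to 2 and 5 to 13 at an unadjusted p under 0.05. In MB1, the fold change of Fbl was 0.0096 under median-ratio scaling and 0.0042 without MB1 with Oli-neu replicate 1. Leaving out each library gave -0.36 to 0.0042 for Fbl and -0.0020 (without MB1 alone replicate 1) to 0.52 for Odc1. The cause was not tested.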
